A study of Mus musculus with 38 samples.

Results

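Footprints of TurboID-PSD95-labelled ribosomes were compared with the footprints of all ribosomes in depolarized neurons that had been treated with siRNA against eIF4G2. The comparison held 4 of the 38 libraries of the series, chosen by their titles, with 2 streptavidin pulldowns and 2 inputs. The cells were primary cortical neurons of the mouse that carried the lentivirus PSD95-TurboID. All had received the eIF4G2 siRNA (20 nM, 72 h) before they were silenced with tetrodotoxin and DL-AP5 for 2 h, depolarized with 55 mM KCl for 1 h and left in medium with biotin for 30 min, and cycloheximide was given for 2 min. Reference groups were the 4 resting libraries of the same knockdown (2 pulldowns, 2 inputs) and 12 libraries of PSD95-TurboID neurons without siRNA, 6 depolarized and 6 resting, with 3 pulldowns and 3 inputs each. The labels give silencing and recovery only for depolarized neurons, so their part in a difference between states cannot be told apart from that of KCl. Libraries from a non-targeting siRNA were not analysed here, so the knockdown, the transfection and the separate experiment cannot be told apart. The labels describe the knockdown libraries as cytosolic while their virus field names PSD95-TurboID, and the latter was followed.

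PL-Ribo-seq joins proximity labelling to ribosome profiling. TurboID is a biotin ligase that tags proteins near it, streptavidin collects the tagged complexes, and the mRNA pieces covered by ribosomes in them are sequenced. In this construct the ligase is joined to PSD95, the main scaffold of excitatory postsynapses, and its mRNA carries elements that send it to dendrites. The initiation factor eIF4G2 (also known as DAP5) resembles the scaffold eIF4G1 but lacks the part that binds the cap-binding protein eIF4E. It is known for initiation that does not rely on eIF4E and for translation of main reading frames that lie behind upstream reading frames. A pulldown over input ratio compares the makeup of the footprints in both fractions, and in such bulk libraries fewer labelled cells and less ribosome-bound RNA per cell cannot be told apart.

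The 4 libraries held 5906281 to 13372008 counts, of which 2127135 to 3857115 lay in the CDS of the 22375 transcripts used, 1 per gene. The chosen transcripts took 22.0% and 29.3% of all counts in the pulldowns and 56.4% and 50.5% in the inputs. Eif4g2 footprints were at 332 and 320 CPM (counts relative to library size, scaled by the TMM method) in the knockdown inputs and at 571, 510 and 743 CPM in the inputs without siRNA, and the groups did not overlap. The log2 ratio was -0.90 ± 0.19 (SE, FDR 0.00645), in a comparison of inputs in which 5.3% of 13180 genes were called (3.17% higher, 2.12% lower). In pulldowns, where 18.9% were called (7.96% higher, 10.9% lower), it was -1.05 ± 0.192 (FDR 0.000823). The call in inputs was lost without knockdown input replicate 1 (-0.939) or 2 (-0.886). Within the knockdown, Eif4g2 was at 261 and 225 CPM in pulldown against 326 and 314 CPM in input (log2 ratio -0.397 ± 0.117, FDR 0.00679). This call was lost without input replicate 1 (-0.368) or pulldown replicate 2 (-0.296).

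In depolarized knockdown neurons, 5964 of 12223 tested genes (48.8%) differed between pulldown and input at an FDR of 0.05, 2932 higher in pulldown (24.0%) and 3032 lower (24.8%). Of these, 1552 were more than 2-fold higher and 2083 more than 2-fold lower. The higher genes were mostly long ones, with a median CDS of 2391 nt against 817 nt for the lower genes. By p, Map1b, Map1a and Dlg4 headed the higher side, while Nnat, Mapt, Ubb and genes of histone H4 were near the head of the lower side. The knockdown replicates are not said to come from separate cultures, so the p-values measure only the spread between these libraries, which may be technical.

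Map1b, a microtubule-associated protein, had 54100 and 61200 CPM in the pulldowns and 11600 and 11500 CPM in the inputs. Its log2 ratio was 2.32 ± 0.0553 (FDR 1.61e-20), and its pulldown level lay far above both inputs. Map1a, its relative of mature dendrites, was at 6840 and 8120 CPM against 880 and 879 CPM, with a log2 ratio of 3.09 ± 0.0777 (FDR 3.01e-20). Dlg4, which encodes PSD95, was at 1710 and 2150 CPM against 115 and 116 CPM, with a log2 ratio of 4.06 ± 0.115 (FDR 2.94e-19). The TurboID-PSD95 construct holds elements of PSD95, so that its own footprints may be among those counted for Dlg4, and their part was not tested. Map2, another dendritic microtubule protein, went the other way, at 1390 and 1530 CPM in pulldown against 3390 and 3260 CPM in input (log2 ratio -1.19 ± 0.0717, FDR 9.53e-13).

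The other top-ranked genes on the higher side were of varied kinds. Prrc2b, an RNA-binding protein linked to translation initiation, was at 2830 and 3030 CPM in pulldown against 434 and 465 CPM in input (log2 ratio 2.71 ± 0.0769). Eif5b, the factor that joins ribosomal subunits, was at 865 and 1140 CPM against 93.2 and 98.9 CPM (3.39 ± 0.115). Both were about as far from the inputs as the microtubule proteins, with no overlap. Acaca, the acetyl-CoA carboxylase that carries biotin by nature, had a log2 ratio of 2.72, the repressor cofactor Ankrd12 2.97, the nuclear pore protein Nup153 2.56, the chromatin protein Tnrc18 2.53, the nuclear protein Ylpm1 2.06, the splicing factor Prpf8 1.5 and the dynein heavy chain Dync1h1 1.43. The mitochondrially encoded mt-Co1, mt-Nd5 and mt-Cytb, subunits of respiratory complexes, had 2.04, 2.08 and 1.63.

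**Figure D1:**
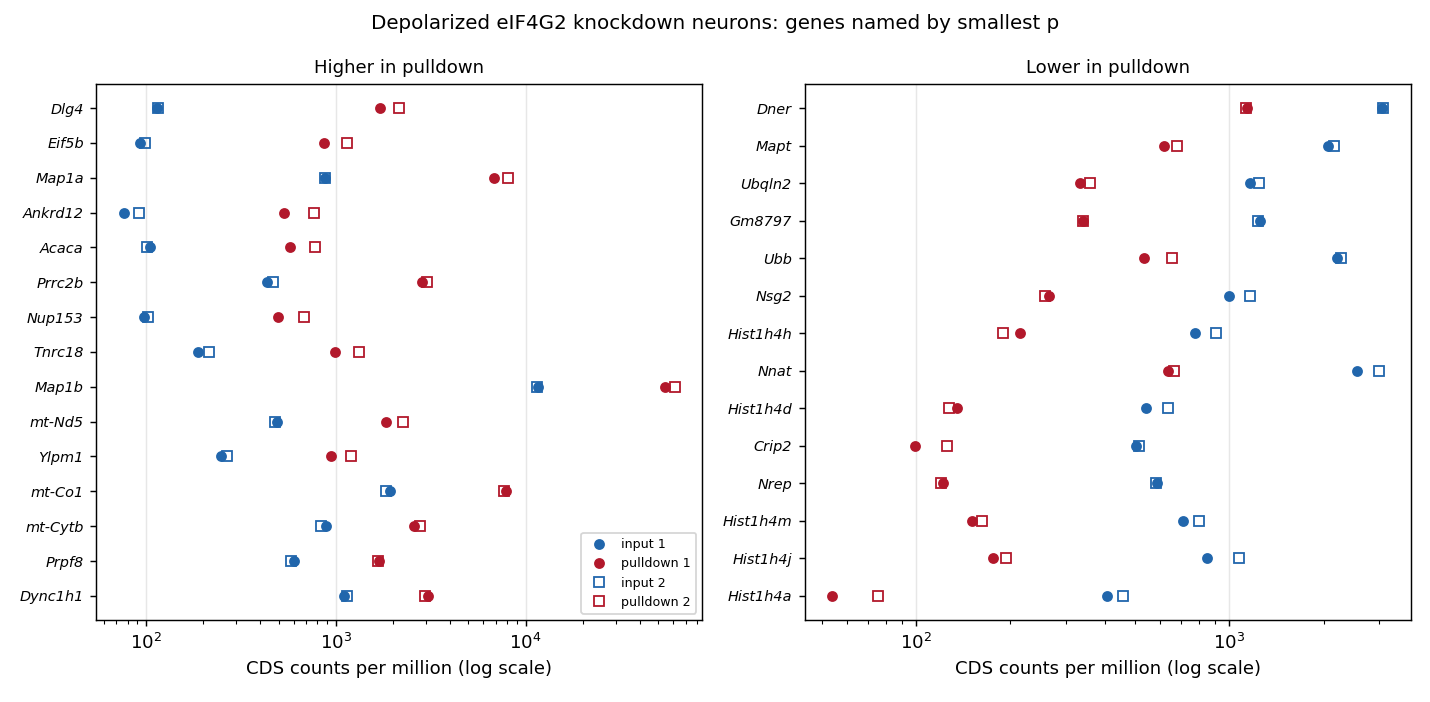
CDS level in CPM (log axis) in each of the 4 depolarized knockdown libraries for 15 higher and 14 lower genes top-ranked by p, with inputs in blue and pulldowns in red, circles for replicate 1 and squares for replicate 2. In every row the pulldowns lie on the same side of both inputs, from Dlg4 at 1710 and 2150 against 115 and 116 to Hist1h4a at 53.9 and 75.7 against 408 and 457; levels are to be compared within a gene only.

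Lower in pulldown were Mapt, the axonal microtubule protein tau, at 619 and 679 CPM against 2070 and 2160 CPM in input (log2 ratio -1.71 ± 0.0762, FDR 6.61e-15), and Nnat, a small membrane protein of the endoplasmic reticulum (ER), at 635 and 664 CPM against 2550 and 3010 CPM (-2.10 ± 0.0845, FDR 6.9e-16). Both had pulldown levels well under the inputs. Dner, a neuronal Notch ligand, had a log2 ratio of -1.44, the endosomal protein Nsg2 -2.04, the LIM domain protein Crip2 -2.19 and the ubiquitin receptor Ubqln2 -1.80. The ubiquitin gene Ubb (-1.91), the predicted gene Gm8797 (-1.86) and 5 histone H4 genes, Hist1h4a, Hist1h4d, Hist1h4h, Hist1h4j and Hist1h4m (-2.05 to -2.75), have near-identical copies and are uncertain as single genes. Nrep was also lower.

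Postsynaptic genes were mostly higher. Of 32 scaffolds and glutamate receptors, 20 were higher in pulldown and 3 lower, beside 24.0% and 24.8% of all genes. These shares are the reference for every list count of this ratio that follows. The list's median log2 ratio was 0.74 beside 0.000709 over all genes tested. With a trend of each library on CDS length taken out, 10 members were higher. The scaffold-linking proteins Dlgap1, Dlgap2 and Dlgap3 had 1.39, 1.79 and 1.21, and the exchange factor Kalrn 1.58. The AMPA receptor subunits Gria1, Gria2, Gria3 and Gria4 were all higher, at 0.66, 1.28, 1.07 and 0.79. For Gria2 the values were 1120 and 1190 CPM in pulldown against 494 and 459 CPM in input. Camk2a, a kinase whose mRNA is known in dendrites, was at 294 and 277 CPM against 151 and 164 CPM (0.861 ± 0.109, FDR 3.68e-07). The NMDA receptor subunits were uneven, with Grin2a at 1.08 and Grin2b at 0.50 past the threshold and Grin1 at 0.14 not past it. Lower were Dlg3 (-1.02), Begain (-0.82) and Dlgap4 (-0.38). Homer3 did not pass, at 4.79 and 9.71 CPM against 10.5 and 7.61 CPM.

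Presynaptic and axonal genes lay on both sides. Of 23, 7 were higher and 12 lower, beside 24.0% and 24.8% of all genes, with a median of -0.27. The active zone scaffolds Bsn and Pclo had log2 ratios of 1.13 and 0.83, the priming factor Unc13a 0.87 and the vesicle protein Sv2a 0.94. Lower were the vesicle and plasma membrane SNAREs Vamp2 (-2.18), Stx1a (-1.51) and Snap25 (-0.61), the growth cone protein Gap43 (-1.37), the neurofilament Nefm (-1.29) and the complexins Cplx1 (-1.25) and Cplx2 (-0.80). Also higher were the phosphatase Synj1 (0.41) and the vesicle protein Syp (0.28).

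Channels, pumps and transporters, which pass the membrane many times, were higher in 27 of 33 and lower in none, with a median of 0.90. The sodium channels Scn1a, Scn2a, Scn3a and Scn8a had log2 ratios of 1.44, 1.29, 1.32 and 2.04, and the calcium channels Cacna1a, Cacna1b, Cacna1c and Cacna1e had 1.68, 1.32, 1.46 and 1.68. The smaller neutral amino acid carrier Slc38a2 (0.25) did not pass. Of 25 giant cytoskeletal and ubiquitin ligase genes, 20 were higher and 4 lower (median 0.65). In the longest 10th of genes by CDS (mean log2 CPM of at least 4), 72.2% were higher, with a median of 0.99. Among the ligases, Mycbp2 had 1.67, Herc2 1.55, Ubr4 1.43 and Huwe1 1.35. The 4 lower ones were Map2, the spectrins Sptbn1 (-0.77) and Sptan1 (-0.47) and the kinesin Kif5c (-0.26).

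Most members of 3 families of short proteins were lower. Of 66 replication-dependent histones tested, 63 were lower and none higher, with a median log2 ratio of -1.95. Of 74 cytosolic ribosomal proteins tested, 66 were lower and 1 higher (median -1.50). Rpl8 was at 341 and 296 CPM in pulldown against 972 and 943 CPM in input, and the exception was Rpl5, at 1.52. Of 76 nuclear-encoded subunits of oxidative phosphorylation, 61 were lower and 7 higher (median -1.48). Cox6c was at 40.4 and 66.5 CPM against 331 and 320 CPM, while the large catalytic subunits Ndufs1 (1.26) and Sdha (1.07) were among the 7 higher. Histones and ribosomal proteins have near-identical copies, so the single values are uncertain.

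The 13 mitochondrially encoded proteins, made inside the organelle, went opposite to their nuclear partners. Of these, 10 were higher, none was lower and all 13 had a log2 ratio above 0, with a median of 1.59. Their summed level was 19500 and 21300 CPM in pulldown against 5950 and 5780 CPM in input. In resting knockdown neurons all 13 were higher (median 2.01), beside 22.1% of all genes. Without siRNA 3 were higher on depolarization (median 0.754) and 9 at rest (median 1.18), beside 11.2% and 14.0% of all genes. Within the knockdown the ratio was lower on depolarization than at rest for 3 members (median -0.368), beside 2.27% of all genes. Endogenously biotinylated carboxylases and their partners, which streptavidin can bind without any labelling, were higher in 6 of 8 and lower in none (median 0.875). Acacb had 3.73, Pcca 1.62 and Pcx, pyruvate carboxylase, 1.03, while Mccc1 (-0.66) and the biotin ligase Hlcs (0.45) did not pass. Their part in other results was not tested.

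**Figure D2:**
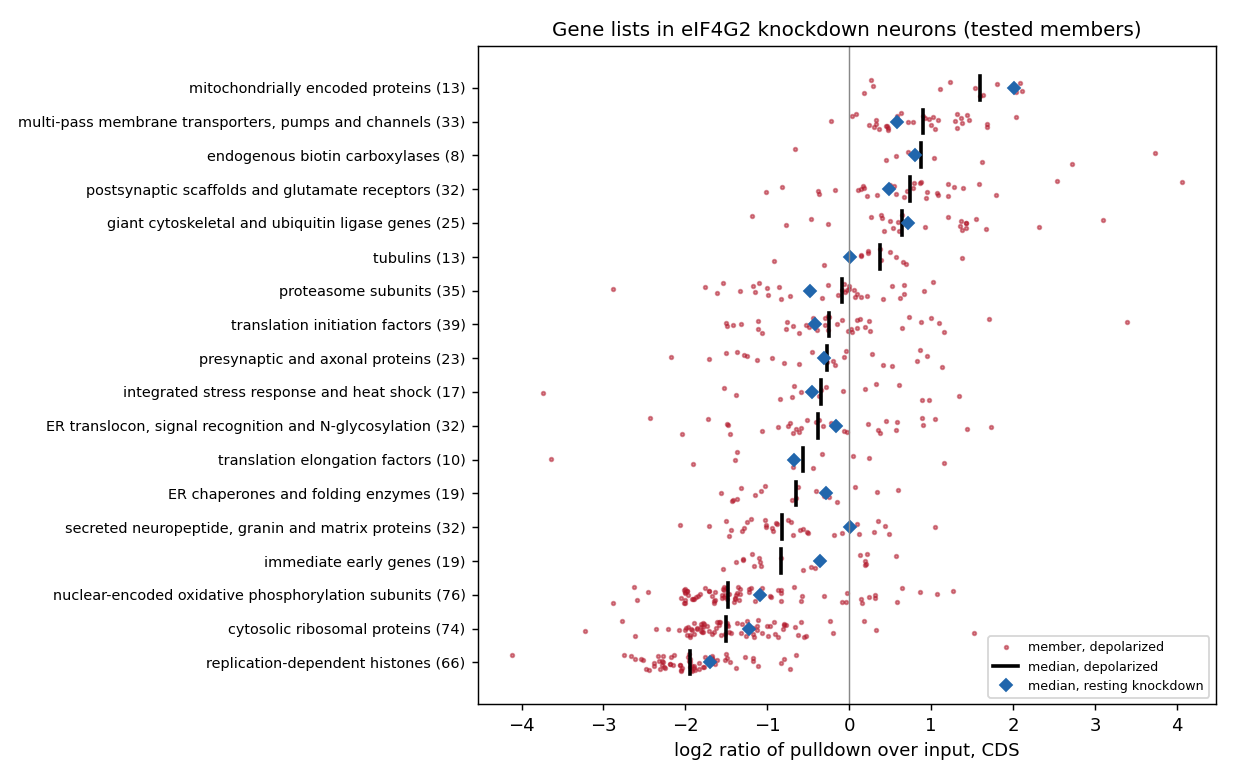
Log2 ratio of pulldown over input in the CDS for the tested members of 18 gene lists in depolarized knockdown neurons (points), their median (black bar) and the median of the same list in resting knockdown neurons (blue diamond), with the number tested in brackets. Medians run from -1.95 for histones to 1.59 for mitochondrially encoded proteins, and the secreted proteins show a bar at -0.819 beside a diamond at 0.0122.

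The ratio rose with CDS length over nearly the whole range. Among 7990 genes with a mean log2 CPM of at least 4, the median log2 ratio was -1.40 in the shortest 10th (78 to 567 nt), where 85.1% of genes were lower, and 0.99 in the longest (3957 to 26400 nt), where 72.2% were higher. The Spearman correlation of length and ratio across these genes was 0.585, against 0.568 for resting knockdown neurons and 0.576 for depolarized neurons without siRNA. It is given as a description, since genes within libraries are no replicates. GC content ran the other way (-0.248). With a trend of each library on CDS length taken out, 2134 genes were higher and 2158 lower, 3527 of them shared with the calls above. Clearly fewer members then passed in 6 functional lists, with 10 postsynaptic, 7 giant and 15 channel genes higher and 23 ribosomal, 23 respiratory and 6 ER translocation genes lower. The median difference of members from their own length bin was -0.131 for giant, -0.289 for ribosomal and -0.134 for respiratory genes. It was -0.565 for histones, 0.125 for postsynaptic genes, 0.302 for channels and 0.41 for ER translocation genes.

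**Figure D3:**
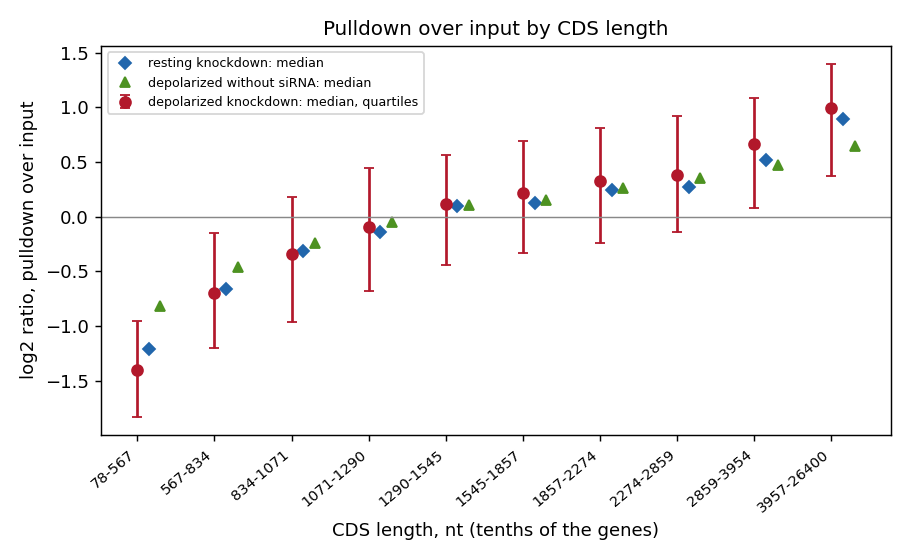
Median log2 ratio of pulldown over input in 10 bins of 799 genes by CDS length in nt, with the quartiles for depolarized knockdown neurons (red, bars) and medians only for resting knockdown neurons (blue) and depolarized neurons without siRNA (green). All 3 climb with length, from -1.40, -1.21 and -0.817 in the shortest bin to 0.99, 0.897 and 0.643 in the longest.

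Initiation factors had no common direction. Of 39, 7 were higher and 11 lower (median -0.25), close to the shares over all genes (24.0% and 24.8%). Higher were Eif5b and the large eIF3 subunits Eif3a (1.70), Eif3c (1.16), Eif3l (1.09) and Eif3d (0.88), with Eif2s1 (0.72) and the mitochondrial factor Mtif2 (0.99), whose call was lost under several alternatives. Lower were Eif2s2 (-1.50), the helicase partners Eif4h (-1.49) and Eif4b (-1.11), the poly(A)-binding protein Pabpc1 (-1.42) and the small eIF3 subunit Eif3g (-1.32). The relatives of eIF4G2, Eif4g1 and Eif4g3, had log2 ratios of -0.15 and 0.09 that did not pass. Elongation factors were more often lower, with 6 of 10 lower and 2 higher (median -0.563), Eef1b2 at -1.91 and Eef1g at -0.682. Of 17 stress response genes tested, 4 were higher and 4 lower (median -0.342), close to the shares over all genes (24.0% and 24.8%).

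Immediate early genes, which neurons switch on within minutes of activity, gained footprints in these cells but were mostly lower in pulldown. All 19 rose with KCl in the knockdown inputs, with a median of 2.65 on the log2 scale, where 8.91% of all genes were higher. Their summed level was 7510 and 7730 CPM in depolarized inputs against 1220 and 1230 CPM in resting inputs. In depolarized pulldowns it was 5140 and 4880 CPM, and in resting pulldowns 911 and 1070 CPM. Between the pulldowns, where 22.2% of genes were called (10.2% higher, 12% lower), 18 of the 19 rose, with a median of 2.01. Of the 19, 11 were lower in pulldown than in input and 1, Ier2 (0.57), was higher (median -0.837). Fos was at 770 and 796 CPM in pulldown against 1770 and 1810 CPM in input (-1.19 ± 0.0793, FDR 5.89e-12), Egr1 at 487 and 467 CPM against 1010 and 1020 CPM, and Junb at 265 and 216 CPM against 686 and 720 CPM. Set against depolarized neurons without siRNA, 2 of the 19 were lower in inputs and 6 in pulldowns, beside 2.12% and 10.9% of all genes. Arc, whose mRNA is known to reach dendrites, differed by -1.68 in inputs (FDR 0.00214) and -1.88 in pulldowns (FDR 0.000427). Within the depolarized knockdown, Arc was at 37.6 and 18.4 CPM in pulldown against 38.8 and 45.7 CPM in input and did not pass (-0.57 ± 0.303, FDR 0.125). Without pulldown replicate 1 it did, at -1.19. Atf3 passed (-1.30 ± 0.495, FDR 0.0323), but not once any of the 4 libraries was left out.

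Depolarized and resting knockdown neurons shared most of their pulldown pattern. In resting neurons 45.5% of genes were called (22.1% higher, 23.4% lower). Of the genes higher in depolarized pulldowns, 2033 were also higher in resting ones, which is 69.3% of the depolarized and 75.3% of the resting list, and 2202 were lower in both (72.6% and 77.0%). The difference of the ratios passed for 462 of 12223 genes (3.78%), with 184 higher on depolarization (1.51%) and 278 lower (2.27%). With upper quartile scaling the split turned to 313 higher and 230 lower, from 39.8% to 57.6% higher. The count was 200 and 202 without resting input replicate 1 or 2 and 266 and 165 without depolarized input replicate 1 or 2. Without resting pulldown replicate 2 it was 331 (120 higher), and without depolarized pulldown replicate 2 it was 653 (281 higher).

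The lower side of this difference was led by secreted and membrane-anchored proteins, the higher side by Homer1 and tubulins. Many, but not all, proteins bound for the ER begin with, or carry close to their start, a run of hydrophobic residues. Codons with T at the second position encode only hydrophobic residues (Phe, Leu, Ile, Met, Val). The stretch of 10 codons within codons 2 to 35 that holds most such codons is shown for the 5 top-ranked genes by p on either side, with those codons in capitals, in mm10 coordinates and on the coding strand. Those whose ratio was lower on depolarization came first.
Cst3, chr2:148875327-148875356, minus strand, codons 8 to 17: TTGCTGTTCCTGCTGgccGTCCTGgccGTG
Bsg, chr10:79704530-79704559, plus strand, codons 5 to 14: CTGCTGCTGgcgCTGgccTTCacgCTCTTG
Ly6h, chr15:75566145-75566174, minus strand, codons 9 to 18: CTCggtCTGgcgCTGCTGgccTTGCTTCTC
Timp2, chr11:118355040-118355069, minus strand, codons 8 to 17: CTCcggCTGgcgCTCggcCTCCTGCTGCTA
Sparc, chr11:55409952-55409981, minus strand, codons 2 to 11: agggcctggATCTTCTTTCTCCTTtgcCTG
Those whose ratio was higher on depolarization follow.
Homer1, chr13:93341763-93341792, plus strand, codons 5 to 14: cctATCTTCagcactcgagctcatGTCTTC
Tubb5, chr17:35836722-35838011, minus strand, codons 15 to 24, across an intron: cagATCggtgctaagTTCtgggagGTGATA
Ipo5, chr14:120911281-120911310, plus strand, codons 10 to 19: cagTTCtacCTGCTCCTGggaaacCTGCTC
Tubb2a, chr13:34076643-34077887, minus strand, codons 15 to 24, across an intron: cagATCggcgctaagTTTtgggagGTGATA
Dpysl2, chr14:66865135-66865164, minus strand, codons 16 to 25: cgtCTTCTGATCaaaggtggcaagATTGTG
The first 5 hold 8, 7, 7, 7 and 6 such codons and the other 5 hold 4, 4, 6, 4 and 5. Over 12073 tested genes with an ATG start, 11% had a stretch with at least 7. The share was 27.4% (74 of 270) among genes lower in the difference and 4.92% (9 of 183) among genes higher in it. The number of 7 was chosen after seeing the data. With at least 6 such codons the shares were 42.2% and 15.8% beside 22.1% of all genes, and with at least 8 they were 13.3% and 2.19% beside 4.66%. Sparc and Ipo5, of opposite sides, both hold 6. It was 9.39% among genes higher and 9.03% among genes lower in depolarized pulldowns. A stretch of this kind is a description of the letters and does not show a signal peptide.

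Cst3, the secreted protease inhibitor cystatin C, was at 207 and 191 CPM in depolarized pulldowns against 512 and 572 CPM in inputs, and at 658 and 706 CPM in resting pulldowns against 354 and 367 CPM. It was thus lower than input in depolarized cells and higher in resting ones, with a difference of log2 ratios of -2.36 ± 0.134 (FDR 1.72e-11). Bsg, the membrane glycoprotein basigin, was at 242 in both depolarized pulldowns against 739 and 780 CPM, and at 1140 and 1680 CPM against 604 and 661 CPM at rest (-2.80 ± 0.166, FDR 2.33e-11). The GPI-anchored Ly6h (-2.24 ± 0.156), the metalloproteinase inhibitor Timp2 (-2.28 ± 0.176) and the matrix protein Sparc (-1.79 ± 0.143) had the same pattern. In depolarized neurons without siRNA the log2 ratios of Cst3, Bsg, Ly6h and Timp2 were -0.856, -0.862, -0.842 and -0.676, all past the threshold, and Sparc had -0.85, not past it. In resting neurons without siRNA, 27.9% of 13180 genes were called (14.0% higher, 13.9% lower). There Cst3, Bsg, Ly6h and Timp2 had -0.981, -1.02, -0.908 and -0.919, where the resting knockdown had 0.918, 1.15, 0.827 and 1.13. This change between experiments was not tested. The calls without siRNA come from a fit that did not use the replicate number as a block. With it 15.7% of all genes were lower on depolarization, in place of 7.0%. A missing call, as for Sparc, therefore does not show an unchanged ratio.

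Of 32 neuropeptides, granins and matrix proteins, 21 were lower and 3 higher in depolarized knockdown pulldowns (median -0.819), against 9 lower and 8 higher at rest (median 0.0122). The difference itself was lower for 16 of the 32 and higher for none, beside 2.27% lower and 1.51% higher of all genes. Its median was -0.564 beside 0.0156 over all genes. The list was chosen with earlier results of these data known. Without siRNA the list's median ratio was -0.437 on depolarization (2 higher, 6 lower) and -0.685 at rest (1 higher, 11 lower), beside 11.2% of all genes higher and 7.0% lower on depolarization and 14.0% and 13.9% at rest. With the replicate number as a block 3 members were higher and 17 lower on depolarization (16.5% and 15.7% of all genes), and 4 and 21 at rest (19.1% and 20.0%). The difference between these states without siRNA was not tested. The peptide Npy had a log2 ratio of -2.07 on depolarization (-0.624, FDR 0.0518, with the length trend taken out) and -0.69 at rest, somatostatin (Sst) -1.31 (0.0126 with the trend taken out) and -0.41, the granin Chga -1.51 and 0.27, and the binding protein Igfbp5 -1.71 and 0.45. Pcsk2, a prohormone convertase, was higher in both states (1.04 and 0.58). Left-out libraries moved the 16 to between 11 and 16 members. Their summed level was 13800 CPM in both resting inputs and 14300 and 14600 CPM in depolarized inputs, while it was 12900 and 14600 CPM in resting pulldowns and 9710 and 8980 CPM in depolarized ones.

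Of 19 ER chaperones and folding enzymes, 12 were lower and 1 higher in depolarized pulldowns (median -0.645), and P4hb (-1.34), Hspa5 (-0.755) and Calr (-0.45) had a lower ratio than at rest. Of 32 genes of ER translocation and glycosylation, 8 were higher and 14 lower, beside 24.0% and 24.8% of all genes. The higher count is thus near the share over all genes, and with the length trend taken out 6 were lower. The catalytic subunits Stt3a (1.44) and Stt3b (1.04) and the translocon parts Sec63 (1.73) and Sec61a1 (0.88) were higher, and the subunits Spcs1 (-2.04), Ddost (-1.49), Sec61b (-1.48) and Dad1 (-1.46) lower. The translocon-associated Ssr1 and Ssr2 were higher at rest (1.22 and 0.83) and lower on depolarization (-0.52 and -0.87), a difference of -1.73 and -1.70.

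Homer1 had the largest rise of the ratio among the 5 genes named on the higher side. The transcript counted has a CDS of 561 nt and is the short form, an activity-induced variant that lacks the part by which Homer proteins join to each other. Most of its CDS is shared with the longer forms, so the footprints cannot be assigned to a form. It was at 67.5 and 112 CPM in depolarized pulldowns against 13.5 and 17.8 CPM in inputs, and at 10.3 and 7.52 CPM in resting pulldowns against 24.4 and 17.6 CPM. The log2 ratio was 2.53 ± 0.292 on depolarization and -1.19 at rest, and the difference 3.72 ± 0.427 (FDR 2.25e-06). With the transcript of longest CDS the difference was 2.94. In depolarized neurons without siRNA the log2 ratio was 1.68 (FDR 0.0139). Input levels did not differ past the threshold between states (-0.445 ± 0.294, FDR 0.329), while the pulldowns did (3.27 ± 0.31, FDR 1.53e-08).

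Other postsynaptic members parted in this difference. Gria2 (0.48) and Grin2b (0.53) had a higher ratio on depolarization, while Shank1, Shank2 and Shank3, the large scaffolds of the postsynaptic density, had a lower one (-0.73, -0.75 and -0.86), as did Dlgap4 (-0.72). Shank1 and Shank2 were higher in pulldown in both states. Of 13 tubulins, 3 had a higher ratio (Tubb5 0.643 ± 0.0873, Tubb2a 0.577 ± 0.0864, Tubb2b 0.42) and 1 a lower one (Tuba1c -0.54). Tubb5 was at 3190 and 3170 CPM in depolarized pulldowns against 2070 and 1980 CPM in inputs, and near its input at rest. Of 35 proteasome subunits tested, 7 had a higher ratio (0.57 to 1.15, among them Psma4, Psmd1 and Psmc1) and 1, Psmb1, a lower one (-0.53). Over all genes 1.51% had a higher and 2.27% a lower ratio on depolarization. The number of genes called higher ran from 42 to 281 with libraries left out. The import receptor Ipo5 (0.907 ± 0.134) and the growth cone protein Dpysl2 (0.616 ± 0.095) complete the named higher genes.

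**Figure D4:**
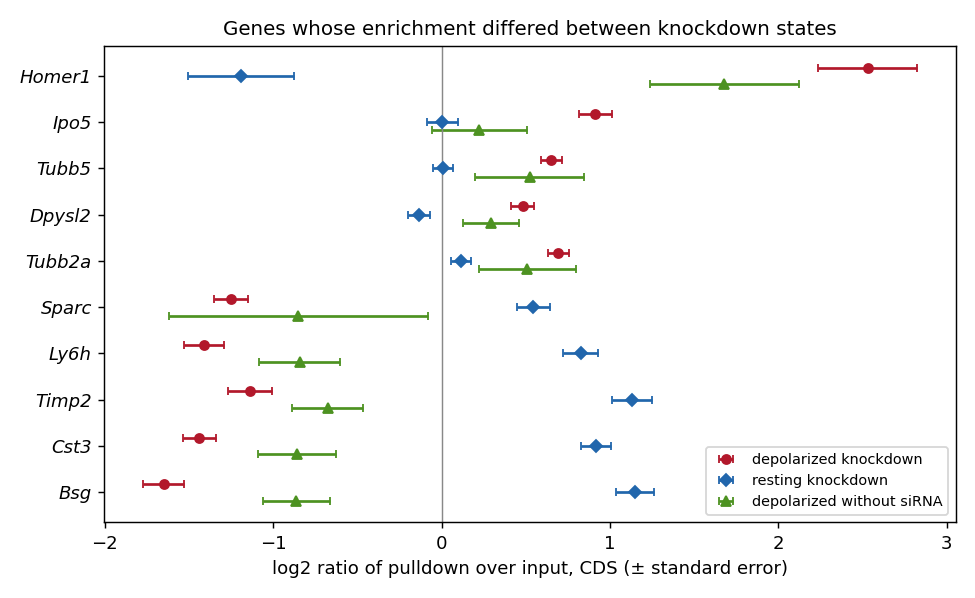
Log2 ratio of pulldown over input with standard errors for the 10 genes named from the difference between depolarized (red) and resting (blue) knockdown neurons, with depolarized neurons without siRNA in green. Homer1 lies at 2.53 on depolarization and -1.19 at rest, and Sparc, Ly6h, Timp2, Cst3 and Bsg lie below 0 on depolarization with or without siRNA and above 0 in resting knockdown neurons.

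Set against depolarized neurons without siRNA, where 18.2% of 13180 genes were called (11.2% higher, 7.0% lower, and 16.5% and 15.7% with the replicate number as a block), the pulldown ratio differed for 8 genes (0.0607%) in edgeR's quasi-likelihood test, 7 higher with knockdown (0.0531%) and 1 lower (0.00759%), and 1275 genes had an unadjusted p under 0.05. Prrc2b was at 2840 and 3090 CPM in knockdown pulldowns against 441 and 475 CPM in inputs, and without siRNA at 996, 622 and 617 CPM against 600, 641 and 836 CPM. It stood apart from input only in the knockdown, with a difference of 2.59 ± 0.3 (FDR 7.05e-05). Nup153 was at 500 and 691 CPM against 99.3 and 104 CPM, and without siRNA at 180, 139 and 117 CPM against 135, 113 and 143 CPM (2.40 ± 0.282, FDR 7.05e-05). Ylpm1 (2.08), Tnrc18 (2.05), Map1a (1.73) and the endosomal WASH subunit Washc2 (1.46) were also higher. Tmem242, a mitochondrial membrane protein, was lower, at 5.61 and 7.90 CPM against 97.0 and 144 CPM with knockdown and at 13.8, 30.5 and 26.8 CPM against 62.9, 68.4 and 65.1 CPM without (-2.74 ± 0.5, FDR 0.0324). In resting knockdown pulldowns Prrc2b, Nup153 and Ylpm1 stood still higher, with log2 ratios of 3.59, 3.40 and 3.36.

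This count of 8 depended on the fit. The replicate numbers of the libraries without siRNA mark pairs. With the replicate number as a block 308 genes passed, 109 higher and 199 lower of 13180 tested, the 8 among them. Prr12, Bcor, Peg3 and Bahcc1, mostly nuclear proteins, then joined the higher genes (1.40 to 1.83). So did 6 of 13 mitochondrially encoded proteins and 3 of 39 initiation factors (Eif3a, Eif3c and Eif5b). Acan, Dner, Sez6l, Npc1 and Gspt1 joined the lower genes (-1.06 to -1.64), with 9 of 66 histones. Without pulldown replicate 1 of the group without siRNA 220 genes passed (70 higher, 150 lower), and with any other of the 10 depolarized libraries left out 3 to 11 did. Dlg4 did not differ past the threshold (-0.208 ± 1.12), and none of the 32 postsynaptic genes passed in either fit. In simulated counts the fit without the block recovered 3% of 2-fold and 36% of 4-fold changes of this difference. A missing call therefore does not show an unchanged ratio. Markers of cell types also differed between the experiments. Microglial markers had a median log2 ratio of knockdown over no siRNA of 3.91 in inputs (2 of 6 higher) and 4.25 in pulldowns (3 of 6 higher), and markers of dividing cells 1.25 (1 of 9) and 1.51 (4 of 9). GABAergic markers had -1.10 in inputs and -0.988 in pulldowns (5 of 10 lower in each), and pan-neuronal ones -0.308 (1 of 12 lower) and -0.708 (6 of 12 lower). Their part in the comparison was not tested.

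Pulldowns held few footprints in 5′ UTRs. They took 6.05% ± 0.186 (SD, n = 2; 5.92% and 6.18%) of the counts in 5′ UTR, CDS and 3′ UTR of the chosen transcripts, against 20.5% ± 0.6 (n = 2; 20.1% and 21.0%) in inputs. The CDS took 88.1% against 77.4%, and the 3′ UTR 5.89% ± 1.45 (4.86% and 6.91%) against 2.10% ± 0.0126. The groups did not overlap in any region, and the two-sided exact permutation p of 0.333 is the smallest that 2 against 2 can give. The 5′ UTR share was also lower in pulldown in the reference groups. Resting knockdown neurons had 5.19% and 6.0% against 15.2% in both inputs. Without siRNA depolarized neurons had 5.15%, 18.4% and 9.94% against 22.0%, 27.2% and 23.4%. Resting ones without siRNA had 5.57%, 10.1% and 6.32% against 16.4%, 22.1% and 20.2%. Footprints were counted at their 5′ ends with no offset, which places ribosomes on the first codons in the 5′ UTR.

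**Figure D5:**
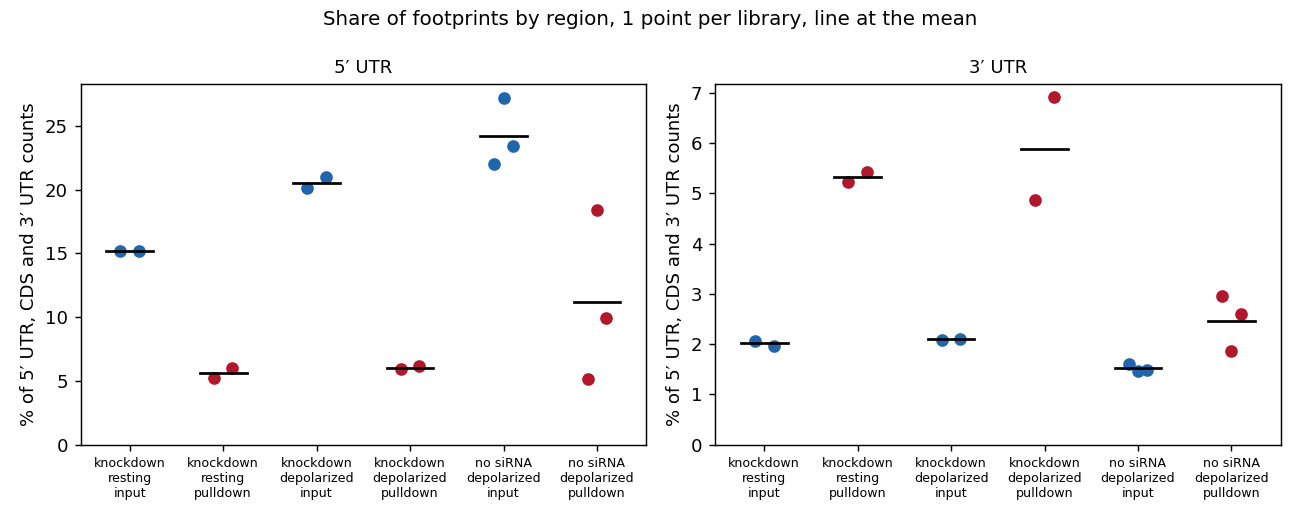
Share of counts in 5′ UTRs (left) and 3′ UTRs (right), in % of the counts in 5′ UTR, CDS and 3′ UTR, with a point per library and a line at the group mean, inputs in blue and pulldowns in red. The depolarized knockdown pulldowns lie at 5.92 and 6.18% for 5′ UTRs, under their inputs at 20.1 and 21.0%, and at 4.86 and 6.91% for 3′ UTRs, above their inputs.

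Gene by gene, 67.1% of 8142 tested 5′ UTRs were called. Of these, 5458 (67.0% of those tested) were lower in pulldown and 9 (0.111%) higher when scaled by the CDS counts, with a median log2 ratio of -1.88. Of the 8024 genes tested in both regions, 90.7% had a lower ratio in the 5′ UTR than in the CDS, and 1564 of the 2214 genes higher in the CDS were lower in the 5′ UTR. Across these genes the ratios of both regions were hardly related (Spearman 0.0381). Tuba1a was at 280 and 385 CPM in pulldown against 2010 and 2070 CPM in its 5′ UTR (-2.62 ± 0.172), while its CDS ratio was -0.309. Rpl13 (-2.98 ± 0.189) and Cst3 (-2.76 ± 0.181) were the other named 5′ UTRs on the lower side. Rabggtb, a prenylation enzyme subunit, was the clearest exception, at 76.7 and 117 CPM against 2.26 and 3.80 CPM (5.06 ± 0.522, FDR 6.89e-07), with a lower CDS (-1.36). Trim39 (2.97) and Cdh7, listed at 0 in both inputs and at 1.60 and 3.88 CPM in pulldowns, also passed, but both lost the call with the replicate number as a block (FDR 0.0586 and 0.0618). Trim39 also lost it without input replicate 1 (0.113) or 2 (0.0588), and Cdh7 without input replicate 2 (0.0696) or pulldown replicate 2 (0.0584) and with 5′ UTR library sizes (0.0581). Scaled by the 5′ UTR counts themselves, the median was -0.0668 and 97 genes passed, 43 higher and 54 lower. In resting knockdown neurons 4355 of the 8142 5′ UTRs were lower in pulldown and 12 higher, scaled by the CDS counts, with a median of -1.47. No 5′ UTR differed past the threshold between depolarized and resting knockdown ratios in edgeR's quasi-likelihood test, where 952 had an unadjusted p under 0.05 and Ints6 had the smallest (FDR 0.141).

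Genes whose upstream reading frames the study examined by reporters were thinly covered. Of 11 grouped by raised CDS translation of the endogenous gene in that study 8 could be tested, and 1, the mitochondrial DNA polymerase Polg, was higher in pulldown (1.19 ± 0.27, FDR 0.000675), but not with the length trend taken out (0.567, FDR 0.109). Of 8 grouped by reduced CDS translation 7 could be tested, 2 were higher (Mtif2 and Mphosph9) and 1, Cnep1r1, lower (-2.68), and each of these 3 calls was lost under some alternatives. The study chose both sets on its own depolarized libraries, and neither the grouping nor a call here speaks for the outcome of a reporter. Nsun3, a mitochondrial RNA methyltransferase, was at 0 and 5.34 CPM in depolarized pulldowns and 1.5 and 1.69 CPM in inputs, and Mtf1 at 14.4 and 12.6 CPM against 15.5 and 19.0 CPM, and neither passed. The depolarized pulldowns of Nsun3 differed from each other, and its log2 ratio of 0.664 turned to -5.80 without pulldown replicate 2. The reporter genes Katnbl1, Cmc4, Lrrc51 and Spink10 had 78, 41, 35 and 7 counts over the 8 knockdown libraries and were not tested. Apaf1, a cell death factor, was higher (1.29 ± 0.189).

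By summed level, markers of neurons were well covered. The marker Rbfox3 was at 18.8 and 17.0 CPM in pulldown against 14.8 and 8.88 CPM in input. Of 12 pan-neuronal markers 1 was higher and 8 were lower in pulldown, with a summed level of 6090 and 6050 CPM against 9000 and 8840 CPM in input. For 10 excitatory markers the sums were 1440 and 1450 CPM against 1590 and 1660 CPM (2 higher, 3 lower), and for 10 GABAergic markers 1140 and 990 CPM against 1080 and 1070 CPM (3 higher, 6 lower). Over all genes 24.0% were higher and 24.8% lower, so the excitatory counts are near these shares. With the length trend taken out, 5 excitatory and 3 GABAergic markers were lower, beside 2158 of 12223 genes. Astrocyte markers summed to 1540 and 1240 CPM against 1610 and 1530 CPM (4 higher and 4 lower of 11, and 1 higher without input replicate 2), with Gfap at 5.19 and 4.37 CPM against 17.0 and 22.4 CPM. Aqp4, another astrocyte marker, lay above its inputs, at 29.2 and 46.6 CPM against 21.1 and 17.3 CPM. Oligodendrocyte markers summed to 168 and 135 CPM against 220 and 245 CPM (2 lower of 9) with Mog at 0. Microglial markers summed to 96.3 and 118 CPM against 68.2 and 66.0 CPM (1 higher and 1 lower of 6). Among these, Tmem119 was at 0 in pulldowns, and Cx3cr1 was at 4.4 and 2.43 CPM against 0.501 and 0.846 CPM. Endothelial markers summed to 65.9 and 73.8 CPM against 106 and 87.5 CPM (1 lower of 2) with Cldn5 at 0. The lower one, Kdr, had a log2 ratio of -0.76, and of -0.607 without input replicate 1. Fibroblast markers summed to 415 and 379 CPM against 746 and 790 CPM (3 lower of 5), with Col1a1 at 62.3 and 52.4 CPM against 237 and 239 CPM. Markers of dividing cells summed to 2100 and 2170 CPM against 2250 and 2210 CPM (3 higher and 3 lower of 8), with Mki67 at 199 and 224 CPM against 72.4 and 82.4 CPM. The part of these cells in the results was not tested.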

How the data were processed

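Ribosome footprints from 20 libraries of mouse cortical neurons were used, 8 with knockdown of eIF4G2 and 12 of PSD95-TurboID neurons without siRNA, and 18 others were not. Per the study's methods, the authors trimmed reads, removed molecular identifiers and aligned to mm10 with Rsubread. Per the file headers, 5′ ends were counted with plastid (offset 0, lengths 25 to 100 nt). Strand and the handling of multi-mapped reads are not given in the sources used here, and overlapping or near-identical genes are therefore uncertain. The authors deposited whole-number counts of each CDS and UTR segment, while their RPKM columns were not used.

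Counts of the longest transcript of each gene were summed (66664 of 67238 coding transcripts matched a symbol). The CDS was tested by the quasi-likelihood method of edgeR 4.0.16 (R 4.3.3) with TMM and filterByExpr at a Benjamini-Hochberg FDR of 0.05, over 8 libraries with 4 group means, or 20 libraries with 8 group means against neurons without siRNA. 5′ UTR counts used the CDS library sizes. Standard errors of log2 ratios were taken as the absolute log2 ratio divided by the square root of the F statistic. Sequences were read from the mm10 genome (GRCm38). The code was tested on simulated counts. Named genes were the 15 with the smallest p in each direction whose same-numbered pairs both moved that way, 5 per direction in each difference, 3 per direction for 5′ UTRs, 3 per list and genes the study names; further list members were named after their values were seen, by their role in the list. A few genes that the rule or the lists hold are not reported here. Members and the 29 lists were chosen with earlier results of these data known. Alternatives were scaling, filter, test (likelihood ratio, DESeq2 1.42.0), transcript, length trend, replicate block and libraries left out. The start windows, and the alternatives for the KCl response and for Eif4g2 against neurons without siRNA, were chosen after seeing the data.

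Replicates of a group differed beyond sampling noise (chi-square per gene 2.81 to 4.65). Deviations of same-numbered knockdown libraries were hardly correlated (r 0.00748 and 0.0192 over 7991 genes). With only 2 libraries a group, this cannot tell whether their numbers pair them. Without siRNA such deviations were correlated (r 0.399 to 0.672 over 8105 genes, each sample best with its own number).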

Additional observations from a re-analysis of the deposited data

Results flagged for a closer look

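The pulldown ratio differed between depolarized and resting knockdown neurons for 462 genes, by a test of the difference itself. The 10 named genes differed by a log2 value of 3.72 for Homer1, 0.907 for Ipo5, 0.643 for Tubb5, 0.616 for Dpysl2, 0.577 for Tubb2a, -1.79 for Sparc, -2.24 for Ly6h, -2.28 for Timp2, -2.36 for Cst3 and -2.80 for Bsg. All 10 differences passed the threshold with each of the 8 knockdown libraries left out. Among secreted proteins, 16 of 32 had a lower ratio on depolarization in the knockdown, beside 2.27% of all genes. This list was chosen with earlier results of these data known, so the count is no separate support. Without siRNA the list's median ratio was -0.437 on depolarization and -0.685 at rest.

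The ratio differed between depolarized neurons with and without knockdown for 8 genes, of which 6 are named by the rule. The log2 differences were 2.59 for Prrc2b, 2.40 for Nup153, 2.08 for Ylpm1, 2.05 for Tnrc18, 1.46 for Washc2 and -2.74 for Tmem242. Prrc2b, Nup153 and Ylpm1 passed with each of the 10 depolarized libraries left out, while Washc2, Tnrc18 and Tmem242 lost the call without some of them. Washc2 also lost it with the CDS length trend removed (1.23, FDR 0.13). The libraries without siRNA are paired by number, and with the replicate number as a block 308 genes passed (109 higher, 199 lower), with Tnrc18 at FDR 3.98e-07, Washc2 at 0.000623 and Tmem242 at 0.000908.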

How the results depend on the processing

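The counts of genes higher and lower in depolarized knockdown pulldowns stayed within 1.5 times under all alternatives run. The difference from resting neurons gave 313 higher genes with upper quartile scaling and 283 with the likelihood ratio test, and with libraries left out 165 to 653 in all, 42 to 281 higher and 123 to 372 lower. KCl response calls of inputs then ran from 1178 to 2824 (resting inputs 1 and 2 gave 1185 and 1178, depolarized inputs 1339 and 1356). The difference from neurons without siRNA gave 13 genes with RLE factors (12 higher), 33 with no filter (17 and 16), 44 by likelihood ratio (23 and 21), 91 by DESeq2 (64 and 27), 3 lower without the length trend, 308 with the replicate block (109 and 199), 395 with block and length trend (113 and 282), and with libraries left out 3 to 220 in all, 3 to 70 higher and 0 to 150 lower. For 5′ UTRs, their own library sizes gave 97 calls (43 and 54), the likelihood ratio test 17 higher, the replicate block 2 higher and left-out libraries 2 to 13 higher. For depolarized pulldowns over inputs without siRNA, a fit with the block chosen after seeing the data gave 4240 calls (2174 higher, 2066 lower) in place of 2399. Counts over all genes for depolarized and resting knockdown ratios, their difference and resting neurons without siRNA moved by less than 1.5 times with the block, while single lists could move by more, such as secreted proteins at rest without siRNA (21 lower in place of 11). Eif4g2 in inputs ran from -0.993 to -0.728 with libraries left out, and lost its call without knockdown input 1 (-0.939) or 2 (-0.886). With the transcript of longest CDS the shares were 5.66% and 19.6% (5′ UTR, pulldown and input), 89.8% and 79.2% (CDS) and 1.24% (3′ UTR, input).

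Signs turned for genes not called or no longer called. With the length trend removed these were Sst 0.0126, Cspg4 -0.407, Pdgfrb -0.0926 and Immp1l 0.107, with the replicate block Cptp -0.0787, and with both Cspg4 -0.407, Pdgfrb -0.106 and Immp1l 0.283. With a library left out, values ran from -5.43 (without pulldown 1; -0.234 without input 2) to 0.941 for Cptp, -5.40 to 1.26 (without input 2) for Immp1l, -6.27 (without pulldown 1) to 2.39 for Kcnj9, -0.938 to 0.0713 (without pulldown 1) for Homer3, -6.64 to 0.245 (without pulldown 1) for Efcab1 and -5.80 (without pulldown 2) to 1.73 for Nsun3. The causes were not tested. Over all pairs of a single gene or list with an alternative, 2547 kept direction and side of the threshold or stayed within 1.5 times, 60 lost and 8 gained a call, and 38 list counts or shares moved by more. Only 2 libraries a group limit the precision of the knockdown values.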

Other observations

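Beside the immediate early genes, many members of some housekeeping groups differed between depolarized and resting knockdown inputs. Proteasome subunits and initiation factors mostly had no call in inputs (29 of 35 and 32 of 39), as did 9869 of all 12223 genes. Of 74 ribosomal proteins 52 had no call, while 17 were higher and 5 lower, beside 8.91% and 10.3% of all genes. Footprints of 10 of 13 tubulins fell with KCl in inputs and 11 in pulldowns, with medians of -0.755 and -0.609 on the log2 scale, and none rose in either. All 13 mitochondrially encoded proteins rose in both fractions (medians 1.39 and 1.02), as did 53 of 76 nuclear-encoded respiratory subunits in inputs and 24 in pulldowns (medians 0.527 and 0.283). Of 66 histones, 55 rose in inputs and 29 in pulldowns (medians 0.91 and 0.534). Markers of dividing cells moved with them, summing to 2250 and 2210 CPM in depolarized against 1270 and 1330 CPM in resting inputs (3 of 8 higher, median 0.564), as did fibroblast markers, at 746 and 790 CPM against 466 and 471 CPM (2 of 5 higher). Pan-neuronal markers summed to 9000 and 8840 CPM in depolarized against 11000 and 11300 CPM in resting inputs (5 of 12 lower, and 3 in pulldowns). Astrocyte markers were at 1610 and 1530 CPM against 1230 and 1270 CPM (4 of 11 higher, and 7 higher and 1 lower in pulldowns), and GABAergic ones at 1080 and 1070 CPM against 786 and 813 CPM (5 of 10 higher, and 4 in pulldowns). The part of these cells in the differences between states was not tested. Over all genes 19.3% were called in inputs and 22.2% in pulldowns, with medians of 0.023 and 0.000439. The inputs' counts are sensitive to the libraries, as given above.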
